A study of Mus musculus with 7 samples.

Results

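Fat cells secrete protein hormones, called adipokines, and brown fat releases further factors that act on blood vessels, nerves, liver and immune cells. The 10 genes described here encode such factors: Adipoq (adiponectin), Lep (leptin), Retn (resistin), Rbp4 (retinol binding protein 4), Agt (angiotensinogen), Nrg4 (neuregulin 4), Pltp (phospholipid transfer protein), Metrnl (meteorin-like), Epdr1 (ependymin related protein 1) and Lcn2 (lipocalin 2). They were chosen by name, as the rows of the deposited gene count table that carry those symbols. All 10 were in the table of 55487 genes, and all 10 passed the filter on low counts that left 16823 genes for testing.

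Adiponectin is made almost only by adipocytes and circulates as disulfide-linked multimers that raise insulin sensitivity. Leptin reports the size of fat stores to the brain, and its RNA is typically much higher in white than in brown fat. Neuregulin 4 is an epidermal growth factor family ligand of ErbB receptors that brown fat secretes in thermogenic states, and angiotensinogen is the precursor that renin and angiotensin converting enzyme turn into the pressor peptide angiotensin.

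RNA was sequenced from the brown fat of 7 mice of the inbred strain NOD/ShiLtJ, which develops autoimmune diabetes. The CB-100 group held 4 mice whose treatment label is imBAT conditioned buffer (>100kDa), the size fraction above 100 kDa of buffer conditioned by brown adipocytes, and the sham group held 3 mice labelled as given KRBH buffer. Per the labels' protocols, CB-100 was given under the skin for 7 days, at 1.5 mg per kg of body weight, once glucose in blood lay between 190 and 230 mg/dL, and tissue was collected 2 to 8 weeks later (the week of each mouse is not stated). The sham samples carry the same protocol text with no schedule of their own, and neither group has an age in the labels. Each CB-100 sample title also has the code nd and each sham title the code d, so that whatever the code marks and the injection cannot be told apart.

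Library totals ran from 10815101 to 28528471 counts. CB-100 replicate 4 was the deepest and had the largest share of mitochondrially encoded counts, 36.3% against 14.3% to 25.3% in the other 6. Xist and 4 Y-linked genes showed 1 male per group, CB-100 replicate 3 and sham replicate 3. All 9 brown adipocyte markers were detected, with summed levels of 1307 to 3573 CPM (counts per 1000000 of the scaled library total) in CB-100 and 1182 to 2209 CPM in sham, and all 10 skeletal muscle markers were present too, at 244.5 to 1808 and 692.6 to 1576 CPM. Of 6 hepatocyte markers, Alb and Ttr had 0 counts in each of the 7 libraries and Apoa1 at most 4, Apoc3 had up to 27 (sham replicate 1), Fgb up to 19 (CB-100 replicate 4) and Serpina1a 7 to 37.89, and the 6 summed to 0.91 to 2.86 CPM with CB-100 against 1.18 to 2.08 CPM with sham. Summed stromal markers were higher in each CB-100 library, at 776 to 1615 CPM with CB-100 against 331 to 736 CPM with sham, with 0 of 8 called. Most of that sum was the collagen genes Col1a1 and Col3a1, and Dcn, of the same list, was lower in each CB-100 library (48.0 to 78.7 against 94.9 to 115.6 CPM). In sum, Schwann cell markers were also higher in each CB-100 library (85.3 to 125 against 51.5 to 60.4 CPM), of which 1, S100b, was called. Their part in the results was not tested. In tissue RNA, fewer cells of a type and less RNA per cell cannot be told apart.

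The promoters of the 4 genes with the largest or most nearly called differences below are shown first, because they are the sequences upstream of the RNAs on which the results turn. Each is the 150 bases before the transcription start on GRCm38.p6, from RefSeq, written in the direction of the gene: Adipoq from chr16:23146386-23146535 on the plus strand, Lep from chr6:29060071-29060220 on the plus strand, Rbp4 from chr19:38124812-38124961 on the minus strand (the second of 2 listed starts) and Agt from chr8:124569707-124569856 on the minus strand. Capitals mark matches, on either strand, to 6 searched motifs: the core promoter element TATAAA, the upstream box CCAAT, the nuclear receptor core AGGTCA, the palindromic E-box CACGTG, the cyclic AMP response core TGACG and the C/EBP type motif TTGCNNAA. No marked matches overlap each other here.
Adipoq: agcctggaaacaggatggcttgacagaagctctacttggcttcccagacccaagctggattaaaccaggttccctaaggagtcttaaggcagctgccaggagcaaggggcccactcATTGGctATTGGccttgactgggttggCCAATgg
Lep: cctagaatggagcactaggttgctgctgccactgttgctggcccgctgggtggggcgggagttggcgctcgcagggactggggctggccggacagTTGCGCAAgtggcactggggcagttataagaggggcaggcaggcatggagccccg
Rbp4: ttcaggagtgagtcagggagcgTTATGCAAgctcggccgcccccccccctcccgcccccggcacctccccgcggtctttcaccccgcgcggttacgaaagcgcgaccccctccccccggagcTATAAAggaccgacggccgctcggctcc
Angiotensinogen: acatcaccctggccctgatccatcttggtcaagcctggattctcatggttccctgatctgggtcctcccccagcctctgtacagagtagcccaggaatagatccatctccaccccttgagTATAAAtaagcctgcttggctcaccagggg
The Adipoq stretch holds CCAAT 3 times, beginning 34, 27 and 7 bases before the start, the first and second of them on the opposite strand (ATTGG). The Lep stretch holds 1 C/EBP type match 55 bases before the start, which reads the same on both strands, and the Rbp4 and Agt stretches hold TATAAA 28 and 30 bases before the start. The Rbp4 stretch also holds a C/EBP type match, on the opposite strand, 128 bases before the start. Over the full windows of 300 bases, 250 before to 50 after the start, TTGCNNAA was found in 5 of 11 windows of the 10 genes (Lep, Lcn2, Nrg4, Pltp and Rbp4), CCAAT in 3, TATAAA in 3, AGGTCA in 1 (Nrg4), TGACG in 1 and CACGTG in 0. Of all 32851 windows of that length, 10.8% held TTGCNNAA, 37.4% CCAAT, 13.6% TATAAA, 16.3% AGGTCA, 20.8% TGACG and 7.15% CACGTG. The matches describe letters only, and binding was not measured.

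Compared per length, as CPM per kb of exon, adiponectin RNA led in both groups and Lcn2, Epdr1 and, in CB-100, Agt came last. In CB-100 mice the mean levels were 265 CPM per kb for Adipoq (260 to 272), 96.8 for Rbp4 (27.0 to 180), 32.8 for Pltp (28.7 to 39.3), 21.7 for Nrg4 (15.9 to 25.7), 19.3 for Retn (10.6 to 30.6) and 10.2 for Lep (1.10 to 18.2). Below these in CB-100 stood Metrnl at 2.08 CPM per kb (1.77 to 2.70), Epdr1 at 0.67 (0.37 to 1.23), Lcn2 at 0.62 (0.16 to 1.67) and Agt at 0.44 (0.19 to 1.01). The ranges of neighbours in this order were apart for Adipoq and Rbp4, for Pltp and Nrg4 and for Metrnl and Epdr1, and overlapped for the other 6 pairs. In sham the order was Adipoq at 499 CPM per kb (350 to 585), Pltp at 25.2 (17.1 to 32.6), Rbp4 at 19.8 (9.93 to 37.8), Nrg4 at 17.5 (14.01 to 21.3), Retn at 11.0 (5.71 to 16.5) and Lep at 3.24 (0.37 to 5.65). Metrnl at 2.26 (1.61 to 3.25), Agt at 2.15 (0.91 to 2.81), Lcn2 at 0.80 (0.25 to 1.62) and Epdr1 at 0.50 (0.27 to 0.68) closed it. Here the ranges were apart for Adipoq and Pltp and, narrowly, for Retn and Lep, and the other neighbours overlapped. Among the tested genes the Adipoq level per length ranked 64th over the 7 libraries, and Lcn2 and Epdr1 lay at percentiles 18.2 and 15.4.

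The question of the comparison, per the series title, is how large proteins secreted by brown adipocytes bear on the brown fat of diabetic mice. In edgeR's quasi-likelihood test none of the 10 genes passed at a Benjamini-Hochberg adjusted p of 0.05, against 3.70% of all tested genes. DESeq2 called 2 of the 10 and limma voom 2, Adipoq and Agt in each case, where they called 10.8% and 7.21% of all genes. At an unadjusted p under 0.05 edgeR had 3 of the 10 (Adipoq, Agt and Rbp4), against 23.9% of all genes. At an adjusted p of 0.1 edgeR called 2, both lower in CB-100 (Adipoq and Agt), against 6.14% of all genes called lower. Estimates were above 0 for 6 and below 0 for 4, with a median log2 change of 0.35, while the median over all tested genes was 0.03. The groups did not overlap for 1 of the 10, Adipoq, which was lower in CB-100, and for 23.3% of all tested genes (12.2% with CB-100 lower).

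**Figure D1:**
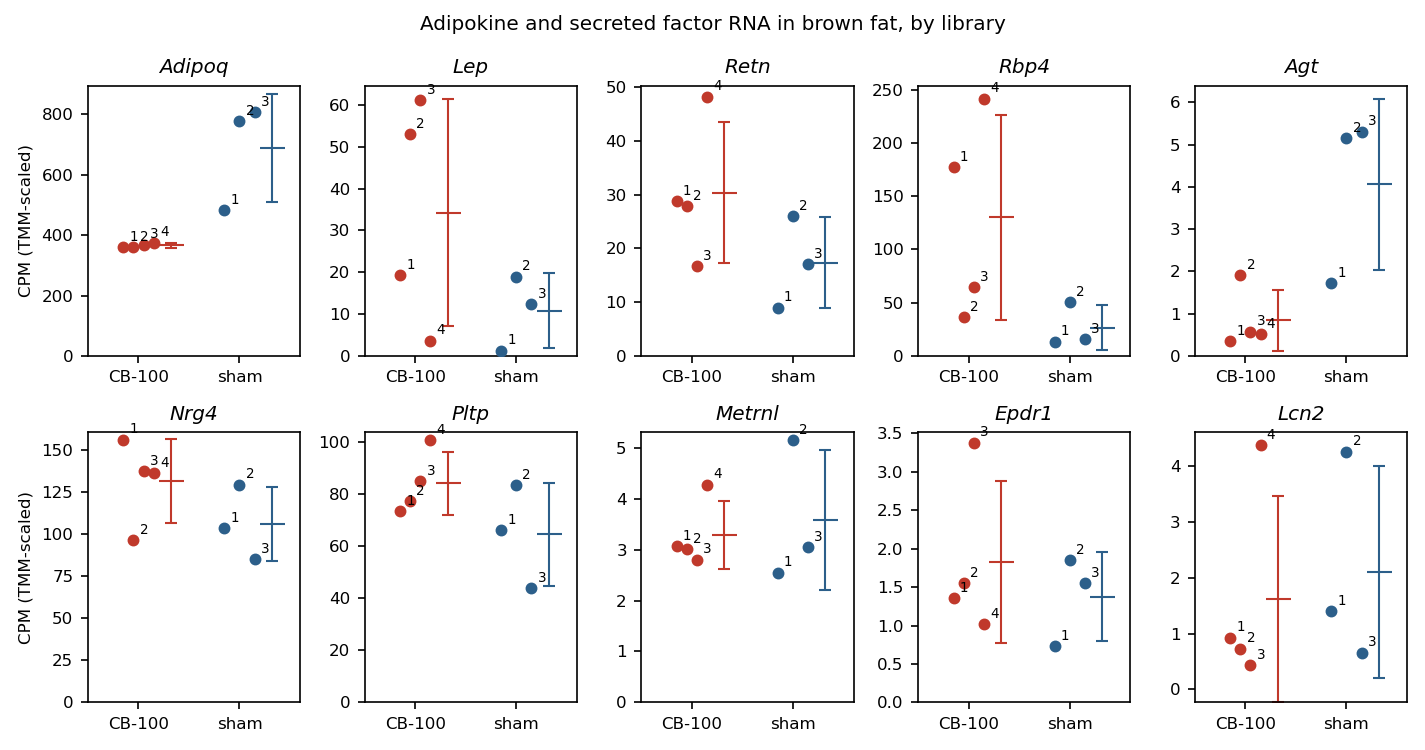
CPM of each of the 10 genes (vertical axes, linear) in the 4 CB-100 libraries (red) and the 3 sham libraries (blue). Points are libraries with their replicate number, and the bar beside them is the group mean with its SD. Adipoq is tight in CB-100 and higher in each sham library, Lep and Rbp4 are spread widely in CB-100, and Lcn2 is high in 1 library of each group.

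Adiponectin RNA stood at 361, 359, 368 and 375 CPM in CB-100 replicates 1 to 4 and at 484, 777 and 808 CPM in sham replicates 1 to 3. Each CB-100 library was below each sham library, and the CB-100 libraries differed from each other far less than the sham libraries did. The coefficient of variation was 1.99% in CB-100 (n = 4) and 25.9% in sham (n = 3). The log2 change was -0.91 (SE 0.21, 95% interval -1.40 to -0.43), or 1.88-fold lower in CB-100, with an edgeR adjusted p = 0.051 that lay just outside the threshold. Adipoq is encoded at chromosome 16, 23146536 to 23158028, on the plus strand of GRCm38, with whole counts and no overlapping gene model. The edgeR adjusted p was between 0.064 and 0.19 with each library left out in turn. In the 5 females the log2 change was -0.79 (edgeR adjusted p = 0.29).

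The RNA of general adipocyte markers was also lower in sum. The summed level of 8 such markers (Plin1, Fabp4, Lipe, Pnpla2, Cidec, Plin4, Pparg and Adrb3) was 7460 to 8167 CPM with CB-100 against 8764 to 11900 CPM with sham, without overlap, although 0 of the 8 passed edgeR's test. The means of 5 of the 8 were lower in CB-100 and those of Plin1, Plin4 and Adrb3 were higher. The separation of the sums needed both the lipase gene Pnpla2 and Fabp4. Without Pnpla2, or without Fabp4, sham replicate 1 would lie among the CB-100 libraries. Fabp4 had 1933, 1395, 1764 and 3856 CPM with CB-100 against 2686, 3934 and 4135 CPM with sham. Pnpla2 had 1996, 1656, 1878 and 1051 CPM with CB-100 against 3034, 3283 and 3543 CPM with sham. Plin4, a lipid droplet coat protein, had 913, 1659, 1826 and 832 CPM with CB-100 against 969, 1126 and 742 CPM with sham. Adrb3, the adrenergic receptor that starts lipolysis and thermogenesis, had 109 to 285 CPM with CB-100 against 36.0 to 146 CPM with sham. The part of these markers in the Adipoq result was not tested.

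Leptin RNA varied more than that of almost any tested gene. It stood at 19.4, 53.0, 61.1 and 3.67 CPM in CB-100 replicates 1 to 4 and at 1.25, 19.0 and 12.4 CPM in sham replicates 1 to 3. The groups overlapped: CB-100 replicate 4 was below 2 sham libraries, and the highest CB-100 library had 16.6 times the level of the lowest. The log2 change was 1.66 (SE 1.02, 95% interval -0.69 to 4.01, edgeR adjusted p = 0.35), and only 0.797% of tested genes had an SE at least as large. The interval holds both no difference and a 16.1-fold higher level. Without sham replicate 1, the lowest library, the log2 change was 1.12, and without sham replicate 2 it was 2.32. Lep lies at chromosome 6, 29060220 to 29073877.

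The ratio of adiponectin to leptin RNA per length does not depend on the scaling between libraries. It was 45.3, 16.5, 14.6 and 248 in CB-100 replicates 1 to 4 and 940.5, 99.6 and 159 in sham replicates 1 to 3. CB-100 replicates 1, 2 and 3 lay below each sham library, and CB-100 replicate 4 lay within the sham range.

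White adipocyte markers were read beside leptin. Hoxc9 and Tcf21 were at or near 0 in each library (at most 0.072 CPM), and the summed level of the 6 markers in the table was 38.0 to 171 CPM with CB-100 against 27.1 to 102 CPM with sham. The largest part of that sum over the 7 libraries was Nnat (neuronatin), at 15.7, 147, 68.7 and 7.77 CPM with CB-100 against 18.9, 83.2 and 61.9 CPM with sham. Like leptin, Nnat was highest in CB-100 replicates 2 and 3 among the CB-100 libraries and lowest in replicate 4. Slc7a10, an amino acid transporter of the same list, was instead highest in CB-100 replicate 4 (32.9 CPM) and lowest among the CB-100 libraries in replicate 3 (6.33 CPM). The part of these markers in the leptin values was not tested.

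Resistin, a cysteine-rich hormone that mouse adipocytes secrete, had 28.8, 27.9, 16.7 and 48.3 CPM with CB-100 against 9.01, 26.04 and 17.1 CPM with sham. CB-100 replicate 3 was below 2 of the sham libraries. The log2 change was 0.81 (SE 0.42, 95% interval -0.15 to 1.78, edgeR adjusted p = 0.28).

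Retinol binding protein 4, the carrier of vitamin A in blood, gave the largest estimate above 0 of the 10. It stood at 177, 36.3, 64.6 and 242 CPM in CB-100 replicates 1 to 4 and at 13.3, 50.7 and 15.6 CPM in sham replicates 1 to 3. Sham replicate 2 was above CB-100 replicate 2, and the other sham libraries were below each CB-100 library. The log2 change was 2.30 (SE 0.76, 95% interval 0.54 to 4.06), or 4.92-fold higher, and did not pass (edgeR adjusted p = 0.12). It was 1.81 without CB-100 replicate 4 and 3.17 without sham replicate 2, and it did not pass with any library left out (edgeR adjusted p of 0.086 to 0.32). Rbp4 is encoded at chromosome 19, 38116629 to 38125281, on the minus strand.

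The libraries fell in nearly the same order for Rbp4 as for Ucp1, which encodes the heat-producing uncoupling protein. Ucp1 had 2237, 449.8, 1098 and 1824 CPM in CB-100 replicates 1 to 4 and 139.7, 875.0 and 46.1 CPM in sham replicates 1 to 3. For both genes CB-100 replicates 1 and 4 were the highest, followed by CB-100 replicate 3, sham replicate 2 and CB-100 replicate 2, with sham replicates 1 and 3 the lowest. Ucp1 was singled out of 9 brown adipocyte markers after its values were seen, and others of them ordered the libraries differently. Cox8b and Cox7a1 were highest in sham replicate 2 (343.9 and 110.5 CPM), Cidea was highest in sham replicate 3 (642.9 CPM), and Ebf2 was lowest in CB-100 replicate 4 (71.9 CPM). Liver also expresses Rbp4 and Agt strongly, and the part of hepatocyte RNA, whose markers are given above, in their values was not tested.

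Angiotensinogen had the largest estimate below 0, on few counts. It stood at 0.36, 1.92, 0.58 and 0.51 CPM in CB-100 replicates 1 to 4 and at 1.72, 5.15 and 5.31 CPM in sham replicates 1 to 3, from 5 to 21 counts per CB-100 library and 33 to 113 per sham library. CB-100 replicate 2 was slightly above sham replicate 1, and no other pair of libraries crossed. The log2 change was -2.33 (SE 0.60, 95% interval -3.70 to -0.96), or 5.02-fold lower in CB-100, outside the threshold (edgeR adjusted p = 0.065). Without CB-100 replicate 2 it was -3.05 (edgeR adjusted p = 0.057), and in the 5 females it was -1.95 (edgeR adjusted p = 0.30). Agt is encoded at chromosome 8, 124556534 to 124569706, on the minus strand.

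**Figure D2:**
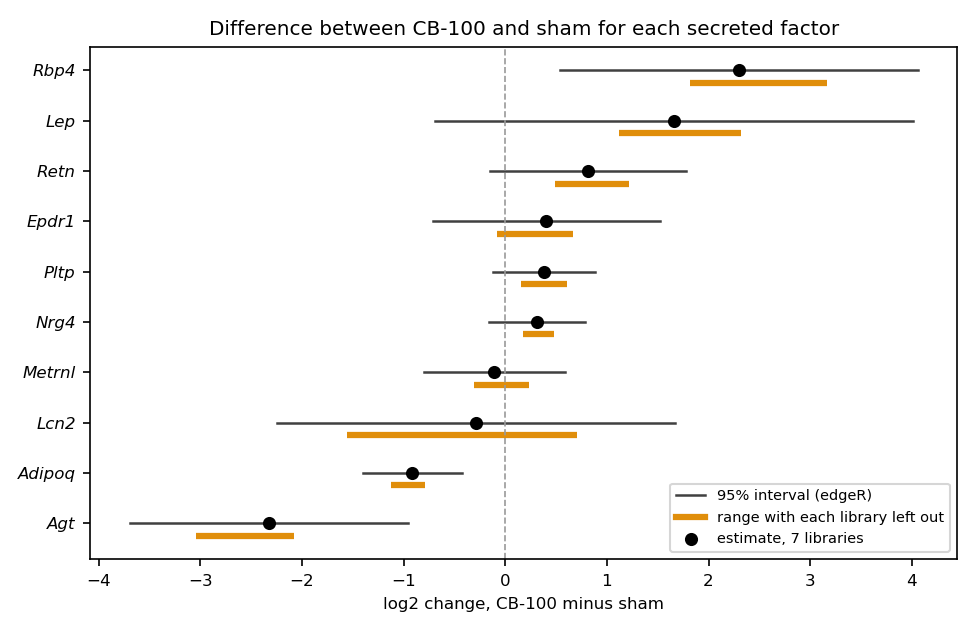
Log2 change of each gene, CB-100 minus sham (horizontal axis), with the estimate from 7 libraries (point), its 95% interval from edgeR (thin line) and the range of estimates with each library left out in turn (thick line). Intervals of Adipoq, Agt and Rbp4 do not reach 0, and the left-out ranges of Metrnl, Lcn2 and Epdr1 lie on both sides of it.

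Neuregulin 4 and phospholipid transfer protein were among the steadier RNAs of the set. Nrg4 had 156, 96.5, 137.5 and 136 CPM with CB-100 against 104, 129 and 85.1 CPM with sham, with overlap (log2 change 0.31, SE 0.21, 95% interval -0.16 to 0.78, edgeR adjusted p = 0.39). The interval runs from 0.90 to 1.72 times the sham level. Pltp, which moves phospholipids between lipoproteins, had 73.5, 77.1, 84.8 and 101 CPM with CB-100 against 66.2, 83.4 and 43.9 CPM with sham, with overlap (log2 change 0.38, SE 0.22, 95% interval -0.12 to 0.88, edgeR adjusted p = 0.32). Both counts are uncertain. Nrg4 and Pltp have non-whole counts in each of the 7 libraries, exons of Fbxo22 on the opposite strand overlap Nrg4, and exons of Ctsa on the opposite strand overlap Pltp.

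Metrnl, Epdr1 and Lcn2 were low and changed side with the library set. Meteorin-like, a secreted factor of fat and muscle, had 3.08, 3.01, 2.80 and 4.28 CPM with CB-100 against 2.55, 5.15 and 3.06 CPM with sham (log2 change -0.11, SE 0.31, 95% interval -0.80 to 0.58, edgeR adjusted p = 0.86), and 0.24 without sham replicate 2. The sham libraries thus enclosed all 4 CB-100 libraries.

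Epdr1, a secreted protein linked to thermogenic adipocytes, had 1.36, 1.55, 3.38 and 1.02 CPM with CB-100 against 0.73, 1.86 and 1.55 CPM with sham, from 14 to 47 counts per library (log2 change 0.41, SE 0.50, edgeR adjusted p = 0.65). CB-100 replicate 3 alone stood above the rest, and without it the log2 change was -0.08. The same library had the highest summed level of 10 skeletal muscle markers, 1808 CPM against 244.5 to 361.3 CPM in the other CB-100 libraries. In sham those markers summed to 692.6, 1576 and 1251 CPM in replicates 1 to 3, and Epdr1 was lowest in replicate 1. With a muscle score as covariate the log2 change of Epdr1 was 0.98 (edgeR adjusted p = 0.29).

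Lipocalin 2, an iron-siderophore binding protein of neutrophils, epithelia and adipocytes, had 0.93, 0.73, 0.43 and 4.37 CPM with CB-100 against 1.41, 4.26 and 0.66 CPM with sham, from 6 to 94 counts per library. CB-100 replicate 4 and sham replicate 2 stood near each other and above the other 5. The log2 change was -0.29 (SE 0.86, 95% interval -2.25 to 1.67, edgeR adjusted p = 0.87), against -1.56 without CB-100 replicate 4 and 0.70 without sham replicate 2.

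Neutrophil markers were read beside Lcn2. Their summed level (10 genes) was 1.22 to 5.26 CPM with CB-100 against 6.25 to 10.78 CPM with sham, highest in sham replicate 1. Only 3 of the 10 could be tested, 1 of which was called, the neutrophil elastase gene Elane (log2 change -3.58, edgeR adjusted p = 0.022). That call rests on few counts, 1 to 2 per CB-100 library and 11 to 32 per sham library. Mpo, Ly6g, Ngp and Camp were at or near 0 in each library (at most 4 counts), and S100a9, the most abundant of the list on average, had 0.46 to 1.49 CPM with CB-100 against 2.26 to 4.43 CPM with sham. Ltf, the lactoferrin gene, which like Lcn2 encodes an iron-withholding protein, had 1.675 CPM in CB-100 replicate 4, 2.89 CPM in sham replicate 2, 0.37 CPM in CB-100 replicate 2 and 0 counts in the other 4 libraries. It was singled out of the 10 markers after its values were seen, and others ordered the libraries differently. S100a8, S100a9 and Retnlg were highest in sham replicate 1 (1.77, 4.43 and 1.67 CPM), where Lcn2 had 1.41 CPM. The part of these cells in the Lcn2 values was not tested.

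**Figure D3:**
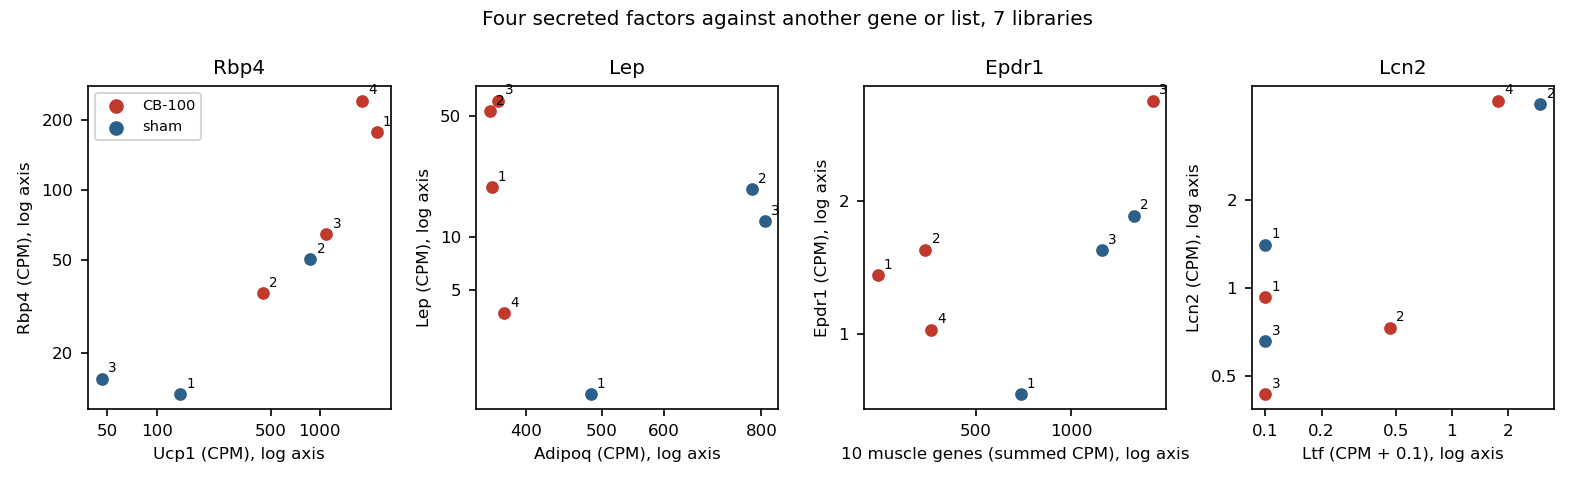
Rbp4 against Ucp1, Lep against Adipoq, Epdr1 against the summed level of 10 skeletal muscle genes, and Lcn2 against Ltf with 0.1 added so that 0 can be drawn (all axes in CPM and logarithmic). Each point is 1 of the 7 libraries with its replicate number, CB-100 in red and sham in blue. Ucp1 and Ltf were singled out of longer marker lists after their values were seen. Rbp4 and Ucp1 place the libraries in nearly 1 order, while Lep spreads from 3.67 to 61.1 CPM over CB-100 libraries whose Adipoq is between 359 and 375 CPM.

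The makeup of the set, as each gene's share of the summed CPM per kb of all 10, is also free of the scaling between libraries. Adiponectin RNA took 55.1%, 70.3%, 66.2% and 49.4% in CB-100 replicates 1 to 4 and 84.9%, 82.2% and 90.3% in sham replicates 1 to 3, so that each CB-100 library lay below each sham library. Rbp4 took 27.8%, 7.29%, 11.9% and 32.7% in CB-100 and 2.41%, 5.51% and 1.79% in sham, also apart, although the Rbp4 levels themselves overlapped. The shares within a library are tied, since a lower Adipoq level raises the share of each other gene. The separation of the Rbp4 shares is thus not a result apart from that of Adipoq. Lep took at most 4.52% (CB-100 replicate 3), and Agt, Metrnl, Epdr1 and Lcn2 each at most 0.51%. The summed level was 370.3 to 550.0 CPM per kb in CB-100 and 413 to 685 CPM per kb in sham, with overlap.

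**Figure D4:**
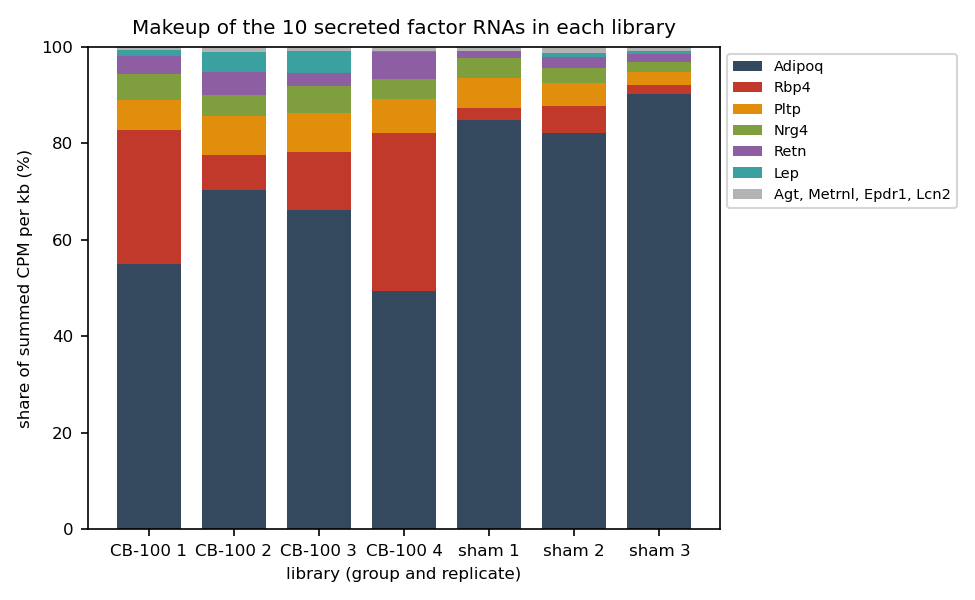
Stacked bars, 1 per library, of the share of each gene in the summed CPM per kb of exon of the 10 genes (vertical axis, percent from 0 to 100). Adipoq fills 82.2% to 90.3% of the sham bars and 49.4% to 70.3% of the CB-100 bars, and Rbp4 fills most of what Adipoq leaves in CB-100 replicates 1 and 4.

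Patterns over the 7 libraries were compared by the root mean square difference of log2 CPM after each gene's mean was subtracted, among 12752 protein-coding genes with a mean of at least 1 CPM. Closest to Adipoq were Rpa3, a replication protein A subunit (0.099), Gstp1, a glutathione transferase (0.11), and Ctsb, the protease cathepsin B (0.14), against a size of 0.49 for the Adipoq pattern itself. Counts were non-whole in 4 libraries for Rpa3 and in 7 for Gstp1 and Ctsb, and exons of Fdft1 on the opposite strand overlap Ctsb. Closest to Rbp4 were Mogat1, a monoacylglycerol acyltransferase (0.37), Cxcl14, a chemokine that brown fat secretes (0.37), and A830018L16Rik (0.39), against 1.47. Cxcl14 had 122, 20.9, 27.5 and 244 CPM with CB-100 against 8.07, 43.7 and 9.92 CPM with sham. Closest to Agt were Prtn3, a neutrophil protease (0.43), Cfd, the adipokine adipsin (0.50), and Acat3 (0.60), against 1.33. Acat3 had non-whole counts in 7 libraries, and exons of Tcp1 on the opposite strand overlap it. Prtn3 was low (0.072 to 4.09 CPM) and lies close to Cfd on the plus strand of chromosome 10 (79874476 to 79883174 and 79890853 to 79892655). Whether the Prtn3 and Cfd patterns are separate was not tested. Cfd had 839.9, 1891, 730.2 and 1167 CPM with CB-100 against 1866, 3942 and 4009 CPM with sham.

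The other patterns were as follows. Closest to Lep were Map2k6 (0.77), Smtnl2 (0.90) and Glb1l2 (0.95) against 1.83, a loose match. For Epdr1 they were Camk2a (0.20), Myl1, a fast skeletal muscle myosin light chain (0.21), and Lrrc39 (0.22) against 0.59, and for Lcn2 they were Rbp7 (0.42), Fxyd3 (0.43) and H4c1 (0.47) against 1.12. Retn was nearest to Runx1t1, Gm42742 and Fcrls (0.18 to 0.20), Nrg4 to Spsb3 and Msantd3 (0.061 and 0.064), Pltp to Rem1, Trib1 and Map3k13 (0.086 to 0.12) and Metrnl to Coa3, Zmat5 and C1s2 (0.10 to 0.13). Within the set itself Nrg4 and Pltp were nearest to each other (0.25), and each other gene was at least 0.355 from its nearest fellow.

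Receptors of these factors were the first of 5 related lists. Of 20 receptor genes 14 could be tested, and 1 was lower in CB-100, 0 were higher and 13 did not pass, with a median log2 change of -0.10 against 0.03 over all tested genes. Of all tested genes 2.28% were called lower and 1.42% higher. The called gene was Erbb4, a receptor tyrosine kinase that binds neuregulin 4. It had 10.2, 10.9, 10.7 and 7.02 CPM with CB-100 against 27.3, 16.15 and 18.3 CPM with sham, so that the groups did not overlap, and its log2 level fell by 1.09 (SE 0.23, edgeR adjusted p = 0.040). Its ligand gene Nrg4 had an estimate on the other side of 0, as given above. Erbb3, which encodes another neuregulin receptor, stood at 13.8 ± 3.26 CPM (SD, n = 4) with CB-100 against 14.95 ± 3.17 CPM (SD, n = 3) with sham.

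Means of the adiponectin receptors differed by less than the SD between mice. Adipor1 had 130.1 ± 11.4 CPM (SD, n = 4) with CB-100 against 127 ± 15.1 CPM (SD, n = 3) with sham, Adipor2 had 523 ± 118 and 511 ± 47.1 CPM, and Cdh13, the T-cadherin that binds adiponectin multimers, had 57.3 ± 19.3 and 65.1 ± 23.8 CPM. The leptin receptor gene Lepr was low, at 1.98 ± 0.82 and 2.61 ± 1.40 CPM, and Agtr1a, an angiotensin receptor, had 11.5 ± 7.06 and 9.998 ± 3.11 CPM.

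Of 22 genes that process or carry the factors, 18 were tested, 1 of them lower, 0 higher and 17 not passed, with a median log2 change of 0.16. The called gene was Gstk1, a thiol-redox enzyme also known as DsbA-L that aids adiponectin multimer assembly. It had 15.3, 9.59, 13.1 and 13.9 CPM with CB-100 against 22.5, 24.2 and 29.0 CPM with sham, without overlap (log2 change -0.96, SE 0.18, edgeR adjusted p = 0.035). Erp44, which retains adiponectin in the secretory pathway, had 20.5 ± 2.68 CPM (SD, n = 4) and 28.25 ± 6.33 CPM (SD, n = 3), and did not pass (edgeR adjusted p = 0.17). Of the angiotensin system, Ren1 was too low to test, and Ace had 32.4 ± 7.78 and 27.3 ± 2.999 CPM.

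The list of other adipokines and brown fat factors had 52 genes, 42 of them tested, with 2 lower, 0 higher and 40 not passed and a median log2 change of 0.40. Apoe, the lipoprotein component apolipoprotein E, had 244, 399, 479.9 and 315 CPM with CB-100 against 1070.0, 1076 and 1419 CPM with sham, and its log2 level fell by 1.72 (SE 0.27, edgeR adjusted p = 0.022). Nampt, the NAD synthesis enzyme that is also secreted as visfatin, had 181, 108, 147.5 and 133 CPM with CB-100 against 351, 211 and 377 CPM with sham. Its log2 level fell by 1.13 (SE 0.25, edgeR adjusted p = 0.045), and Gdap10 overlaps it.

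Among 32 relatives of the 10 proteins 19 were tested, with 1 lower, 0 higher and 18 not passed and a median log2 change of 0.45. The called gene was Apod, which encodes apolipoprotein D, a lipocalin like Lcn2 and Rbp4. It had 7.01, 9.96, 14.3 and 7.77 CPM with CB-100 against 38.4, 19.4 and 23.1 CPM with sham, and its log2 level fell by 1.47 (SE 0.30, edgeR adjusted p = 0.039). Its direction was thus opposite to the estimate of Rbp4. Of 22 transcription regulators of adipocytes 21 were tested, with 1 higher, 0 lower and 20 not passed and a median log2 change of 0.15. Srebf1, the sterol and lipid synthesis factor, rose in log2 level by 0.74 (SE 0.16, edgeR adjusted p = 0.046), from 157 ± 10.9 CPM (SD, n = 3) to 262 ± 30.8 CPM (SD, n = 4), and exons of Rai1 on the opposite strand overlap it. Pparg, the master regulator of adipocytes that drives Adipoq, had 149.5 ± 19.6 CPM with CB-100 against 190.0 ± 42.5 CPM with sham (edgeR adjusted p = 0.31).

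**Figure D5:**
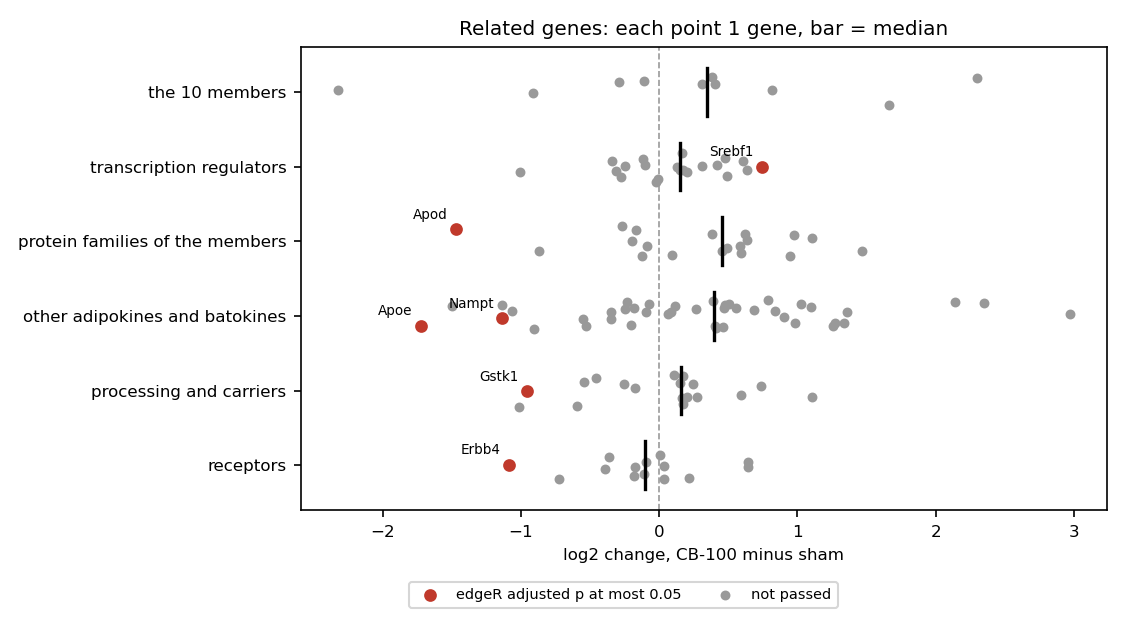
Log2 change, CB-100 minus sham (horizontal axis), of each tested gene in 5 related lists and of the 10 genes themselves. Points are genes, red where edgeR's adjusted p was at most 0.05 and grey otherwise, spread vertically at random for view, and the black bar is the median of the list. The 6 red points are Erbb4, Gstk1, Apoe, Nampt, Apod and Srebf1, and the row of the 10 genes has none.

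Whether the 6 called genes of these lists passed depended on the library set, while each kept its direction in all 18 alternatives. None of the 6 passed without CB-100 replicate 1, CB-100 replicate 2, sham replicate 1 or sham replicate 3, while 2 did without CB-100 replicate 3 (Apod and Apoe), 4 without CB-100 replicate 4 and 3 without sham replicate 2, with an edgeR adjusted p of up to 0.18 over these. Apoe alone passed with sex as covariate and none with a muscle score as covariate. Fewer of all tested genes passed in these fits too, against 622 in the main fit. Without CB-100 replicates 1 to 4 there were 97, 24, 187 and 610, and without sham replicates 1 to 3 there were 14, 319 and 8. With sex as covariate 238 of all genes passed, and with a muscle score 10. The list medians moved too. With 1 library left out, that of the receptors ran from -0.23 (without CB-100 replicate 4) to -0.0073 (without CB-100 replicate 1), and that of the processing genes from near 0 (without CB-100 replicate 4), with 0.059 if sham replicate 1 was omitted, to 0.18. The median of the other adipokines was 0.15 with CB-100 replicate 4 omitted, 0.18 with sham replicate 1, 0.20 with CB-100 replicate 2 and 0.23 with sham replicate 3 omitted, and up to 0.42 otherwise. That of the protein relatives was -0.04 with CB-100 replicate 4 omitted, 0.07 with sham replicate 3, 0.19 with CB-100 replicate 1 and 0.23 with sham replicate 1 omitted, and up to 0.55 otherwise. That of the regulators was 0.04 with sham replicate 1 omitted, 0.05 with sham replicate 3 and 0.07 with CB-100 replicate 2 omitted, and up to 0.20 otherwise.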

How the data were processed

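Brown adipose tissue RNA was aligned with STAR 2.7.9a on the primary assembly of Ensembl release 101, according to the labels' protocols. Also listed, without a role, in the submitters' processing notes are featureCounts 2.0.3, Salmon 1.5.2, edgeR and limma. How reads were counted, and whether by strand, is not given in the sources used here. Expected counts, not normalized and with up to 2 decimals, make up the single gene table that the authors deposited.

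Of 55774 lines 287 repeated another and were removed. Coordinates and exon lengths came from GENCODE M21 (GRCm38, 99.5% of genes matched). Counts were rounded, filtered with filterByExpr, scaled by TMM and tested with edgeR 4.0.16 (robust quasi-likelihood, group only), with Benjamini-Hochberg adjustment over 16823 genes, and the test was checked on simulated data. CPM use TMM-scaled totals, and log2 CPM for patterns a prior count of 2. Counting error limits Agt, Epdr1 and Lcn2 most.

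Groups came from the treatment label, and p-values reflect only how these samples vary, which may be technical. The genes and lists were chosen with earlier results of these data known. Named were the 10 genes, up to 4 called genes per direction of each list and the 3 closest patterns per gene. One of these patterns is not reported here. Other genes were picked for their role or after their values were seen. Alternatives were other scalings and filters, DESeq2 1.42.0, limma 3.58.1 voom, each library left out, females only, sex or a muscle score as covariate, unrounded counts, mitochondrial, 7SL and 7SK genes omitted, and a threshold of 0.1.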

Additional observations from a re-analysis of the deposited data

How the results depend on the processing

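None of the 10 genes passed with any library left out (0 to 0 of 10), in females only, with sex or a muscle score as covariate, with other scalings or with unrounded counts. Of all genes 8 (without sham replicate 3) to 610 (without CB-100 replicate 4) passed with a library left out, and 0 in females only. With sex or a muscle score as covariate 238 and 10 of 16823 genes passed, with other scalings 645 and 606, and unrounded 640 of 16874. At these shares 0 of 10 says little about the 10 genes. Adipoq and Agt passed, 2 of 10, with no filter on low counts (against 914 of all 31875 genes), in DESeq2 and in limma voom. They also passed at a threshold of 0.1 (2 of 10, against 11.1% of all genes). Adipoq alone passed, 1 of 10, with at least 1 CPM in 3 libraries (edgeR adjusted p = 0.049), where 694 of all 15708 genes did. It was also the only 1 of 10 without mitochondrial, 7SL and 7SK genes (edgeR adjusted p = 0.046), where 679 of all 16979 genes passed. Over all 18 alternatives its adjusted p ran from 0.00045 to 0.29 and that of Agt from 0.0039 to 0.31. Log2 changes that changed side with a library left out were those of Metrnl (-0.31 to 0.24, above 0 without sham replicate 2), Epdr1 (-0.077 to 0.66, below 0 without CB-100 replicate 3) and Lcn2 (-1.56 to 0.70, above 0 without CB-100 replicate 3, at 0.02, or sham replicate 2). The other 7 kept their direction in each of the 18 alternatives.

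The number of genes called, 622, was 97, 24, 187 and 610 without CB-100 replicates 1 to 4 and 14, 319 and 8 without sham replicates 1 to 3, 1815 in DESeq2, 1213 in limma voom, 238 with sex as covariate, 10 with a muscle score as covariate, 1860 at a threshold of 0.1 and 0 in females only (edgeR, 2578 at an unadjusted p under 0.05). The fits in females only and with a library left out had fewer samples, and the threshold of 0.1 was looser. How far fewer samples account for those counts, and the cause of the other differences, were not tested. No paired analysis was possible because no animal code occurs in both groups.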

Other observations

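Several secreted factors outside the 10 genes, singled out after their values were seen, had differences of varied size that did not pass edgeR's test. Cfd, the adipokine adipsin and an abundant adipocyte RNA, stood at 1157 ± 523.5 CPM (SD, n = 4) with CB-100 against 3272 ± 1218 CPM (SD, n = 3) with sham (log2 change -1.50, edgeR adjusted p = 0.070). It was thus on the same side as Adipoq and Agt. Angptl4, an inhibitor of lipoprotein lipase, stood at 213 ± 78.1 and 446 ± 213 CPM (edgeR adjusted p = 0.16).

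Apln, Bmp8b, Vegfa and Metrn had estimates above 0. Apln, the vascular peptide apelin, had 4.54 ± 3.69 CPM (SD, n = 4) with CB-100 against 0.59 ± 0.31 CPM (SD, n = 3) with sham, without overlap (log2 change 2.97, edgeR adjusted p = 0.070). Bmp8b, a thermogenic factor of brown fat, had 3.13 ± 2.83 and 0.73 ± 0.45 CPM (edgeR adjusted p = 0.19), and exons of Ppie on the opposite strand overlap it. Vegfa, the main growth factor of blood vessels, had 564 ± 58.6 and 425 ± 62.3 CPM, also without overlap (edgeR adjusted p = 0.23). Metrn, the paralog of Metrnl, had 2.18 ± 0.34 and 1.15 ± 0.49 CPM without overlap (edgeR adjusted p = 0.15), while the Metrnl libraries of CB-100 lay inside the sham range. Other vascular factors of the same list as Apln had estimates on both sides of 0. Below 0, Adm stood at 2.85 ± 0.42 and 4.17 ± 0.79 CPM, without overlap (edgeR adjusted p = 0.21), and Vegfb at 83.9 ± 29.7 and 99.65 ± 27.9 CPM (edgeR adjusted p = 0.68). Above 0 were Edn1 (log2 change 1.10, edgeR adjusted p = 0.40) and Fgf2 (log2 change 0.40, edgeR adjusted p = 0.51).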
